A study of Mus musculus with 2 samples.

Results

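Fli1 and Erg are closely related ETS-family transcription factor genes, and the binding of Scl around them was examined in chromatin of mouse blood progenitor cells. The members are these 2 genes, of 49997 mouse genes listed by RefSeq. Each was given a fixed window, 270 kb on chromosome 9 for Fli1 and 400 kb on chromosome 16 for Erg, and the distinct reads in it were counted, one per start and strand, for sample 2 among uniquely placed reads. Of the 1509 enriched regions found in the genome of sample 1, 3 lay in these windows, and of the 773 found in sample 2, 2 lay there.

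The cells were HPC-7, a mouse haematopoietic progenitor line derived from embryonic stem cells and grown with conditioned stem cell factor (mSCF, 10%). Chromatin was fixed with 0.4% formaldehyde, sheared to between 200 and 500 bp and immunoprecipitated against Scl, a single time, and the DNA was split into 3 portions for sequencing on Illumina Genome Analyzers. The portions sequenced in lanes 7 and 8 make up sample 1, and a different site sequenced the last portion, sample 2. These 2 samples form 1 group with no second condition, and no control library was used here.

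Scl (Tal1) belongs to the basic helix-loop-helix factors, pairs with a class I partner and binds E-box sequences, often beside GATA, LMO and ETS factors. Fli1 and Erg bind GGAA cores, are active in blood stem and progenitor cells and in endothelium, and work with Scl and Gata2 early in blood development. In the RefSeq gene order of build GRCm38, Fli1 is followed by Ets1 with Kcnj1 on its other side, and Erg is followed by Ets2 with Kcnj15 on its other side, leaving out non-coding genes. Both genes run on the minus strand, so their upstream side is the one with higher coordinates.

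At each gene, reads were most concentrated at 1 narrow place, and it was the same place in both samples. The DNA of these places is shown because they are the called regions found in both samples. Only the covered stretches that hold a searched motif are printed, and 1 further stretch at Fli1 and 3 at Erg hold none. It was put together from the sample 2 reads themselves, with each read error that the aligner had marked set back to the genome's base, and it is given on the plus strand of build mm8. Reads covered 227 of the 401 bases around the middle of the Fli1 place (56.6%) and 240 of 401 at Erg (59.9%). Capitals mark GATA motifs (AGATAA or TGATAA, with G also allowed as the last letter), E-boxes (CANNTG), the ETS core (GGAA) and the RUNX core (TGTGGT or TGCGGT), each searched on both strands, so that TTCC stands for the ETS core and ACCACA for the RUNX core of the minus strand.
Fli1 chr9:32305858-32305886: agttgggcactcttTTCCATTTGGAAcca
Fli1 chr9:32305948-32305979: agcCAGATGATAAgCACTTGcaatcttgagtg
Fli1 chr9:32305998-32306085: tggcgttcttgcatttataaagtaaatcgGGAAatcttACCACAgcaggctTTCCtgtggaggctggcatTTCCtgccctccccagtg
Fli1 chr9:32306092-32306137: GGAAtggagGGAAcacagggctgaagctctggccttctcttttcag
Erg chr16:95548118-95548223: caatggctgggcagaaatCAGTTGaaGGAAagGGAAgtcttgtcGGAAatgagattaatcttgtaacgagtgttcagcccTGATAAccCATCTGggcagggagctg

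Both places hold the same pair of words close together, TGATAA and CATCTG, the latter read as CAGATG on the plus strand at Fli1. At Fli1, TGATAA shares 2 bases with CAGATG and is followed after 1 base by another E-box, CACTTG. The Fli1 TGATAA starts 96 bases before the middle of the strongest window of sample 2. At Erg, TGATAA starts 3 bases before the middle of the window used for sample 2, which starts at 95548101, and spans it. An overlapping window that starts at 95548051 held the same 14 reads, so this middle is not exact. The middle of the sample 1 window lies 59 bp from that of the sample 2 window used. The Erg TGATAA is followed after 2 bases by CATCTG. In all, the covered bases at Fli1 hold 7 GGAA cores, 3 E-boxes, 1 GATA motif and 1 RUNX core, and those at Erg hold 3 GGAA cores, 2 E-boxes and 1 GATA motif. The E-box CAGCTG is not in the covered bases of either place, nor is a RUNX core in those of Erg.

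Such short words are common, so each stretch was read against 32544 RefSeq promoters trimmed to the same length (build GRCm38). The promoters were matched in length only and not in base composition, so the shares may differ in sequence of like composition. The stretches that hold TGATAA have a GC content of 43.75% at Fli1 and 48.1% at Erg. A GATA motif is in 4.18% of promoter stretches of 32 bases, the length of the Fli1 stretch that holds it, and an E-box is in 12.01% of them. Over 106 bases, the length of the Erg stretch, a GATA motif is in 13.8% of promoters, CATCTG in 6.42%, any E-box in 38.0% and GGAA in 69.8%. Over 88 bases, GGAA is in 62.9% and a RUNX core in 6.87%. Over 29 and 46 bases, the lengths of the other Fli1 stretches with GGAA, it is in 26.1% and 39.3%. GGAA is therefore in most promoters at the 2 greater lengths and in a minority at the shorter ones. The stretches compared were those found to hold a motif. At the lengths of the other Fli1 stretches searched, a GATA motif is in 3.76%, 4.18%, 11.6% and 6.22% of promoters. For the other Erg stretches these shares are 5.97%, 4.31% and 7.76%. The share over all covered bases of a place is higher than for any single stretch and was not computed. A match describes the letters only and does not show which factor binds.

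Sample 1 held 5632119 distinct reads (one per start and strand) on chromosomes 1 to 19, X and Y, and sample 2 held 4150610. An average 200 bp window therefore held 0.593 reads in sample 1 and 0.437 in sample 2. Coordinates refer to mm9 for sample 1 and to mm8 for sample 2. The samples were lined up at each gene by the shift at which most read ends coincided, and no coordinate was converted between builds. At Fli1 this shift was -58020 bp with 55 coincident ends, against 10 at the next best shift, and at Erg it was -112809 bp with 95 against 12. In tiles of 30 kb that shift came first in 6 of 9 tiles at Fli1 and in 8 of 14 at Erg, but it led clearly, by 2 times or more, in only 3 and 4 of these tiles. No other shift led clearly in any tile, so most tiles decide nothing on their own. All portions come from a single immunoprecipitation, so agreement between samples is technical. Intervals and p-values cover counting error only, and reads carry no molecular identifiers.

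The Fli1 place lay outside the gene. Sample 1 had 18 distinct reads in its strongest 200 bp (exact Poisson 95% interval 10.7 to 28.4), 9 on each strand, where the surrounding 10 kb predicted 0.98. Sample 2 had 13 reads there (6.92 to 22.2), 7 on the plus and 6 on the minus strand, where 0.64 were predicted. Both samples were thus far above their surroundings, by 18.4-fold in sample 1 (10.9 to 29.0) and 20.3-fold in sample 2 (10.8 to 34.7). The one-sided exact Poisson p, adjusted by Benjamini-Hochberg over all windows of the genome, was 2.51e-12 in sample 1 and 1.42e-08 in sample 2.

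The called Fli1 region spanned chr9:32363901-32364300 in mm9 and chr9:32305901-32306250 in mm8. The gene itself lies near 32.23 to 32.35 Mb in mm9, an approximate span that came with the choice of windows and not from an annotation of that build. The middle of the region was 14.1 kb beyond the upper end of that span, on the upstream side, toward Ets1. Which gene the region acts on was not measured.

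The strongest Erg place lay inside the gene. Sample 1 had 23 distinct reads in its strongest 200 bp (14.6 to 34.5), 12 on the plus and 11 on the minus strand, where 1.58 were predicted. Sample 2 had 14 reads (7.65 to 23.5), 6 plus and 8 minus, where 0.98 were predicted. Erg thus had the larger counts of the 2 genes but stood on a higher background, and its enrichment was 14.6-fold in sample 1 (9.23 to 21.8) and 14.3-fold in sample 2 (7.81 to 24.0). The adjusted one-sided exact Poisson p was 2.27e-14 and 1.61e-07.

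The Erg region spanned chr16:95660751-95661150 in mm9 and chr16:95548001-95548300 in mm8. It was 80.95 kb above the lower end of the approximate gene span (95.58 to 95.81 Mb in mm9). RefSeq lists 3 starts of Erg, and 1 of them could be placed, because sample 2 reads match its promoter. That start was at 95680955 in mm9 and 95568146 in mm8, so the middle of the region lay 20.004 kb downstream of it in sample 1 and 19.945 kb in sample 2. Whether the region is in an intron or an exon was not analysed here.

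The size of these folds depends on what the background holds, because the 10 kb around a site includes the site's own reads. Without the 1 kb each side of the window, the folds were 30.4 and 29.8 at Fli1 in samples 1 and 2, and 28.75 and 24.3 at Erg. With a 50 kb background they were 23.7 and 29.8 at Fli1, and 24.9 and 19.1 at Erg. In windows of 400 bp they were 10.7 and 12.5 at Fli1, and 8.54 and 8.33 at Erg. The region was called at both genes in both samples under each of these settings.

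**Figure D1:**
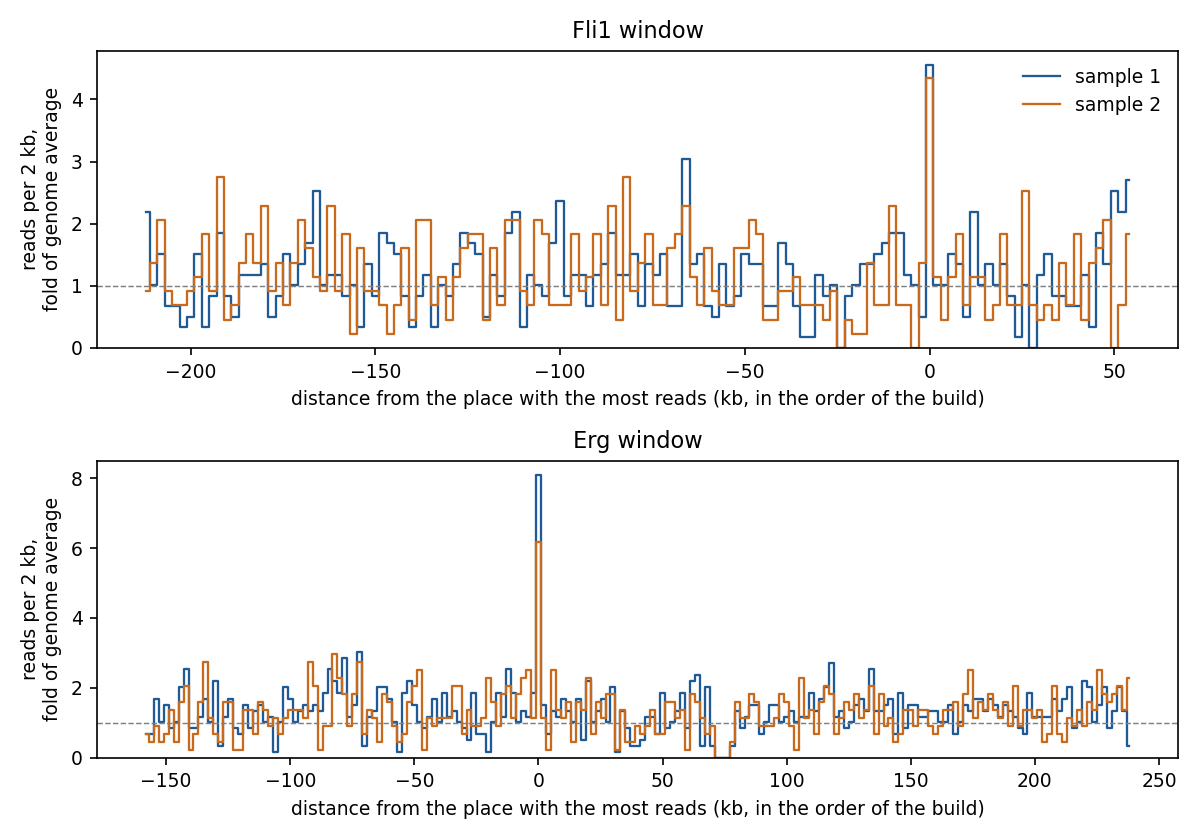
Distinct reads in bins of 2 kb as a fold of the genome average (vertical axes, linear) against distance in kb from the middle of the strongest window, in the order of the build, for the Fli1 window (top) and the Erg window (bottom), with sample 1 in blue and sample 2 in orange. The central bin is the highest in every line, at 4.55-fold and 4.35-fold for Fli1 and 8.10-fold and 6.18-fold for Erg, and the next highest bin is at or below 3.04-fold.

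Over the whole windows only a few places were called. At Fli1, 5 of 5397 windows of 200 bp passed in sample 1 (0.0926%) and 4 of 5396 in sample 2 (0.0741%), and each set merged into 1 region. At Erg, 6 of 7997 passed in sample 1 (0.0750%), forming 2 regions, and 3 of 7996 in sample 2 (0.0375%), forming 1. Over the genome 0.00791% of windows passed in sample 1 and 0.00499% in sample 2. To be called, a window had to be enriched 5-fold or more at an adjusted p below 0.01, with each strand giving 20% or more of the reads.

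In the plot of reads along the windows, both samples show a single tall bin per gene and an uneven floor. The central 2 kb held 27 reads at Fli1 in sample 1 and 19 in sample 2, and the next highest bins held 18 and 12. At Erg the central 2 kb held 48 and 27 reads, and the next highest bins 18 and 13. The Erg peak therefore stood out more over 2 kb than the Fli1 peak did, although their best 200 bp held similar counts.

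The reads next to each peak were then counted from 500 bp to 5 kb on both sides. At Erg this flank held 5.44 reads per kb in sample 1 (4.03 to 7.20), against 3.86 in the rest of the window. The value in sample 2 was 3.33 (2.25 to 4.76) against 2.76. At Fli1 it was 2.89 (1.89 to 4.23) against 3.46 in sample 1, and 1.44 (0.769 to 2.47) against 2.54 in sample 2. Flanks were thus above the rest at Erg and below it at Fli1, but 0 of these 4 differences passed, with adjusted p of 0.0818 at Erg in sample 1 and at Fli1 in sample 2, and 0.411 for the other two (two-sided exact binomial test).

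A second Erg region was called in sample 1 only. It spanned chr16:95873851-95874050 in mm9, beyond the upper end of the gene span by 63.95 kb and so on the upstream side. Sample 1 had 9 reads there (4.12 to 17.1), 3 plus and 6 minus, 10.5-fold over the surroundings, with an adjusted one-sided exact Poisson p of 0.00428. The same place in sample 2 held 1 read, a fold of 2.29 with an unadjusted one-sided exact Poisson p of 0.354. It was no longer called in sample 1 at an adjusted p under 0.001, in lane 7 alone or in lane 8 alone, each of which held 5 reads there. The difference between the samples was not tested.

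A place on the lower side of Fli1 had a high fold in both samples but came near the threshold only in sample 2. It began at 32172701 in mm9 and lay 57.2 kb below the gene span, which is the downstream side. Sample 1 had 6 reads there, 3 in each lane, at 10.1-fold with an adjusted one-sided exact Poisson p of 0.122. Sample 2 had 7 reads at the matching place, 32114751 in mm8, at 11.7-fold with an adjusted p of 0.0472. Neither passed at 0.01. Sample 2 passed when all reads were counted, or when the background left out the 1 kb each side.

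The remaining windows of at least 5 reads that the naming rule picked were not alike in the samples. At Fli1 a window at 32250751 in mm9, inside the gene span, had 5 reads at 7.14-fold in sample 1 and 2 reads in sample 2. One at 32202351 in mm8 had 5 reads at 10.4-fold in sample 2 and 0 in sample 1. At Erg, 95852751 in mm9 had 6 reads in sample 1 and 1 in sample 2, 95527151 in mm8 had 5 in sample 2 and 0 in sample 1, and 95571951 in mm8 had 6 in sample 2 and 3 in sample 1. Their adjusted p by the exact Poisson test lay between 0.179 and 0.730. These windows held at most 6 reads, and the called regions with the fewest reads in the genome held 8 in sample 1 and 7 in sample 2, so sites of this size were not detectable at this depth.

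Within the Fli1 gene span, 0 windows were called in either sample, and none held over 5 reads. Of those windows the lowest adjusted p was 0.593 in sample 1 and 0.463 in sample 2 by the exact Poisson test. Over the whole Fli1 window 195 of 5397 windows in sample 1 and 115 of 5396 in sample 2 had an unadjusted exact Poisson p under 0.05. At Erg these were 375 of 7997 and 215 of 7996. The share over the genome was not computed. The span of Erg held 5 called windows in sample 1 and 3 in sample 2, all at the strongest place.

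The placed start of Erg carried few reads. In the 1 kb around it sample 1 had 9 reads (4.12 to 17.1), 2.25-fold over the surroundings (one-sided exact Poisson p = 0.0214, unadjusted). Sample 2 had 4 (1.09 to 10.2), 1.21-fold (p = 0.420 by the same exact test). The 300 bp of the RefSeq promoter entry held 2 reads in each sample. No window at the start was called, the best one holding 7 reads in sample 1 with an adjusted exact Poisson p of 0.109. The start of Fli1 was not analysed here.

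**Figure D2:**
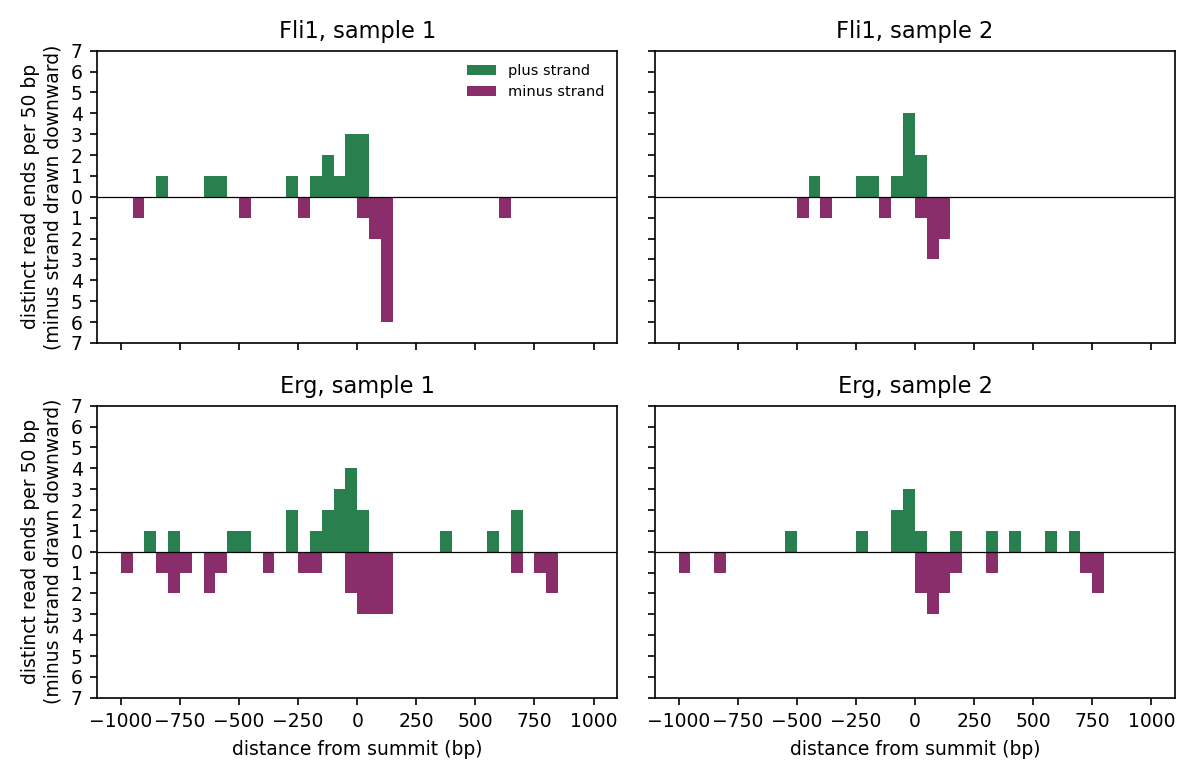
Distinct read ends per 50 bp on each strand (plus strand in green upward, minus strand in purple downward) against distance in bp from the summit, the middle of the strongest window of sample 1, for Fli1 (top) and Erg (bottom) in sample 1 (left) and sample 2 (right). Near the summit plus ends sit mostly to the left of minus ends in every panel, with medians within 300 bp that are 159.5 and 121 bp apart at Fli1 and 117.5 and 98.5 bp apart at Erg.

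The layout of the reads was that of fragments read from both ends around a point. Within 300 bp of the middle, Fli1 had 11 plus and 10 minus ends in sample 1, and 9 plus and 7 minus ends in sample 2. Erg had 14 and 13 in sample 1, and 8 and 8 in sample 2. The median minus end lay 159.5 bp above the median plus end at Fli1 in sample 1 and 121 bp above it in sample 2. At Erg these distances were 117.5 and 98.5 bp. The fragment length estimated over the genome was 115 bp for sample 1 and 124 bp for sample 2. The strongest windows of the samples were 20 bp apart at Fli1 and 59 bp apart at Erg once lined up. At Erg this distance depends on which of the tied windows of sample 2 is used.

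A minority of these ends were repeats. At each gene 3 ends occurred in both samples, which is 14.3% of the 21 ends of sample 1 and 18.75% of the 16 ends of sample 2 at Fli1. At Erg it is 11.1% of 27 and 18.75% of 16. Over the whole windows the shares were lower, at 5.80% of sample 1 and 7.95% of sample 2 at Fli1. At Erg the whole window gave 5.99% and 8.43%. The shift between builds was chosen for the most coincident ends, and the higher share at the peaks was not tested. Between lanes 7 and 8 of sample 1, 0 ends were in common at either place. Counted with duplicates, reads rose only from 21 to 22 and from 16 to 17 at Fli1, and from 27 to 30 and from 16 to 18 at Erg.

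**Figure D3:**
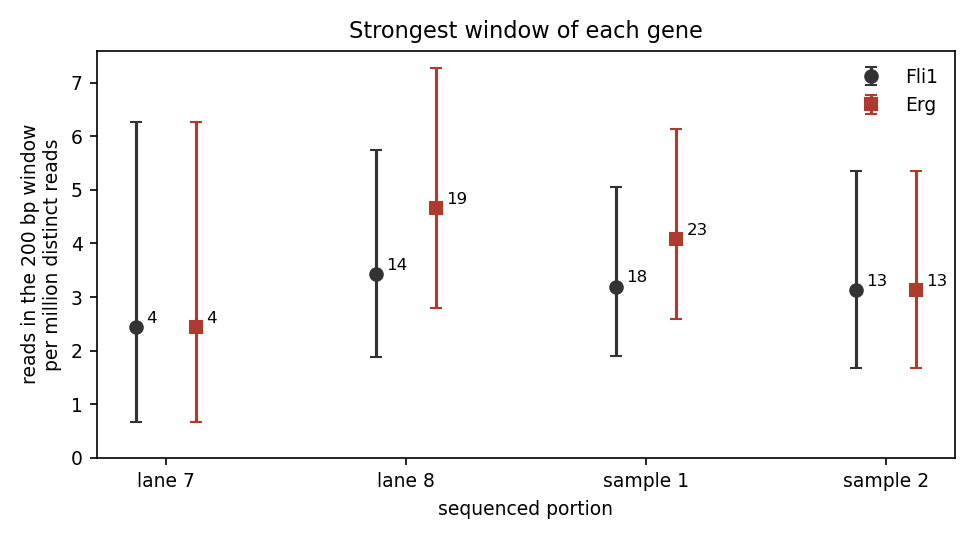
Share of distinct reads (vertical axis, reads per 1000000 distinct reads) in the strongest 200 bp of Fli1 and Erg in lane 7, lane 8, sample 1 (both lanes) and sample 2, with exact Poisson 95% intervals as bars. The values run from 2.45 to 3.43 at Fli1 and from 2.45 to 4.65 at Erg, and all intervals within a gene overlap.

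Each sequenced portion contributed to both peaks. For Fli1, lane 7 had 4 reads or 2.45 per 1000000 distinct reads (0.666 to 6.26), lane 8 had 14 or 3.43 (1.87 to 5.75), and sample 2 had 13 or 3.13 (1.67 to 5.36). For Erg, lane 7 had 4 or 2.45, lane 8 had 19 or 4.65 (2.80 to 7.26), and sample 2 had 13 or 3.13 in the window set by sample 1. Sample 1 supplied 58.1% of the reads at Fli1 and 63.9% at Erg, against 57.6% of all reads. Lane 7 supplied 22.2% and 17.4% of sample 1 there, against 28.6% overall. In these 4 two-sided exact binomial tests the adjusted p was 1. The windows were picked by the same sample 1 reads and the counts are small, so equal shares were not shown. With 4 reads per gene, lane 7 alone called neither place.

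**Figure D4:**
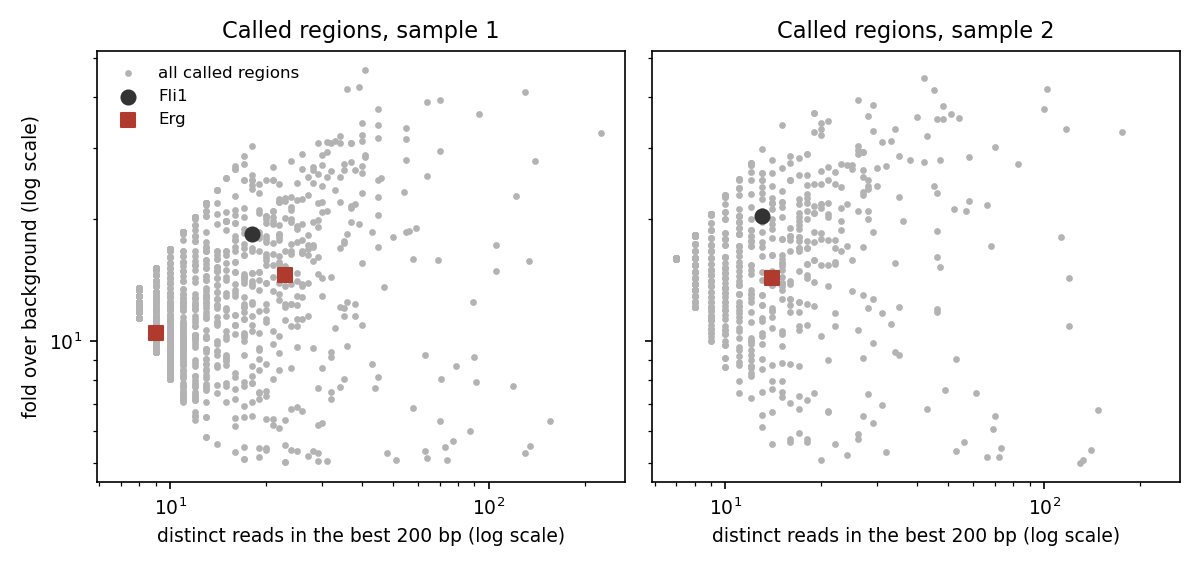
Distinct reads in the best 200 bp (horizontal, log axis) against fold over the surroundings (vertical, log axis) for every enriched region, with 1509 regions in sample 1 (left) and 773 in sample 2 (right) as grey points, Fli1 as a black circle and Erg as red squares. The marked regions lie within the grey cloud, above the median of reads except for the second Erg region of sample 1.

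Among enriched regions of the genome, those at Fli1 and Erg were neither the strongest nor the weakest. At Fli1 290 of 1509 regions of sample 1 had more reads (19.2%), and 285 of 773 in sample 2 (36.9%). By fold, 201 (13.3%) and 163 (21.1%) were higher. At Erg 192 (12.7%) and 256 (33.1%) had more reads, while 411 (27.2%) and 501 (64.8%) had a higher fold. A higher fold need not mean a stronger region, since the fold also depends on the background, which was never below the genome average. In sample 2, regions of 7 reads, the fewest called, had up to 16.0-fold on that lowest background, above the 14.3-fold of Erg. How many of the higher-ranked regions were of this kind was not counted. The second Erg region of sample 1 was among the weaker ones, with more reads in 926 regions (61.4%) and a higher fold in 1116 (74.0%). The strongest place of Fli1 ranked higher by fold and that of Erg by reads in both samples, but this order depended on the setting. With a 50 kb background Erg had the higher fold in sample 1, 24.9 against 23.7. With read ends not moved Fli1 had more reads in sample 2, 12 against 11, and in windows of 400 bp both had 16. Taken separately, the median of reads was 10 in sample 1 and 11 in sample 2, and the median fold was 12.9 and 16.0.

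The genes were compared with each other on the window picked in the other sample, so that no count both chose and measured a window. In these windows Fli1 and Erg had 18 and 18 reads in sample 1, a ratio of 1.0 (0.491 to 2.04). This Erg count rests on a tie, because the sample 2 windows starting at 95548051 and 95548101 both held 14 reads. The second was used, and the ratio with the first was not computed. The strongest Erg window of sample 1 itself held 23 reads. In sample 2 they had 13 and 13, again a ratio of 1.0 (0.427 to 2.34). The two-sided exact conditional binomial p was 1.0 in each. These intervals allow either gene to have about 2 times the reads of the other, so equal strength was not shown. The mean log2 ratio moved to -0.12 with all reads, -0.32 with read ends not moved, -0.24 with 0 mismatches and 0.17 in windows of 400 bp.

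Over the whole windows, peaks included, reads were denser than over the genome. Fli1 had 948 reads or 3.51 per kb in sample 1 (3.29 to 3.74) and 692 or 2.56 per kb in sample 2 (2.38 to 2.76). Erg had 1586 or 3.965 per kb (3.77 to 4.17) and 1127 or 2.82 per kb (2.66 to 2.99). Against the genome average, taken over a mappable length of 1.9 Gb, these were 1.18-fold and 1.17-fold at Fli1, and 1.34-fold and 1.29-fold at Erg. Against all other positions of the same chromosome, mappable or not, they were 1.48-fold and 1.46-fold at Fli1 and 2.17-fold and 2.05-fold at Erg. The two-sided exact binomial p against the chromosome was 1.81e-29 and 5.04e-21 at Fli1 and 1.83e-164 and 7.40e-102 at Erg. That comparison counts unmappable positions of the chromosome too, and the smaller folds over the genome average were not tested.

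The gene bodies had close to the density of the rest of each window, in values that were not tested against each other. The span of Fli1 had 3.40 reads per kb in sample 1 against 3.6 in the rest of its window, and 2.50 against 2.61 in sample 2. The span of Erg had 3.97 against 3.96, and 2.84 against 2.78. Reads of sample 2 without mismatches had a GC content of 49.6% at each gene, 48.4% over the genome, 48.4% on chromosome 9 and 47.9% on chromosome 16. The part of base composition and of mappable length in the density was not tested.

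Read density over the whole window was lower at Fli1 than at Erg in sample 1. The log2 ratio was -0.18 in sample 1 (-0.29 to -0.06), with an adjusted p of 0.0124 by the two-sided exact conditional binomial test over 4 comparisons. In sample 2 it was -0.14 (-0.28 to 0.00), with an adjusted p of 0.100. The mean of these values was -0.16, and since both are portions of 1 immunoprecipitation, it has no replicate error. Only sample 1 passed, and whether the samples differ was not tested.

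Other blood regulators could be read only where sample 2 reads matched a RefSeq promoter. Of a list of 15 ETS and blood genes, 12 have an entry and 5 were placed. A called region lay within 50 kb of a start at 2 of them, Tal1 and Lyl1, and at 0 of the others, Elk3 (an ETS factor), Gata2 (a GATA factor of stem cells) and Kit (the stem cell factor receptor). Of all 12124 placed genes, 5.15% had such a region in sample 2. At Tal1, which encodes Scl itself, the best region had 27 reads at 22.9-fold and lay 38107 bp downstream of the start. At Lyl1, the closest relative of Scl, it had 58 reads at 22.1-fold and lay 213 bp from the start. The Erg region, with 14 reads at 14.3-fold, had fewer reads and a lower fold than either. Placement needs a read in the promoter, so the placed genes are not a sample of all genes.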

How the data were processed

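Single reads of Scl immunoprecipitated DNA were analysed. Per the deposited text and the series' design text, the authors used Solexa alignment software and mm9 for sample 1 and Eland and mm8 for sample 2, with no version stated there. In the deposited file of sample 1 each 45 bp read has a score of 43 to 45, and its shortfall from 45 was read as mismatches. From sample 2 only the uniquely placed reads were used, since the other deposited reads carry no position.

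Distinct reads were moved by 0.5 fragment lengths (115 bp in sample 1, 124 bp in sample 2) and counted in 200 bp windows every 50 bp. Window counts were compared, in one-sided exact Poisson tests, with the genome average or the surrounding 10 kb, whichever was higher, with Benjamini-Hochberg adjustment over the genome, and passing windows within 200 bp were merged. The procedure was also run on simulated reads with known sites, and the outcome is not reported here. Named were all regions called in a gene window and, up to 3 places per gene and sample, the windows of highest fold with at least 5 reads, and the placed starts. The genes, their windows and the lists were chosen with earlier results of these data known. Alternatives were background, window width, duplicates, mismatches, read shift, threshold, strand rule, lanes and samples. Python 3.11.15, numpy 2.4.6, scipy 1.17.1 and pandas 2.3.3 were used.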

Additional observations from a re-analysis of the deposited data

How the results depend on the processing

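Of 86 values recomputed under other settings, 74 met the rule for staying the same. Folds and densities had to keep their direction or side of the threshold, and counts of regions to stay within 1.5 times. Log2 ratios had to stay within 1 standard deviation of the 2 samples, which values without either sample always do. For the strongest window that deviation was 0, so any change counted as a move. Among the others, the 1 Fli1 region of sample 1 and both Erg regions were not called in lane 7 alone (0 regions each), and lane 8 alone, or an adjusted p under 0.001, left 1 Erg region. In lane 7 alone, the windows picked for having the most reads had folds of 12.5 at Fli1 and 22.7 at Erg. They did not pass (adjusted exact Poisson p = 1 and 0.128). The Fli1 window, at 32298201 in mm9, held 4 reads, as many as lane 7 had at the strongest Fli1 place, so a tie decided it. The Erg window, at 95873801 in mm9, overlapped the second Erg region and held 5 reads, against 4 at the strongest Erg place. Lane 7 holds fewer reads by construction. In sample 2, Fli1 had 2 regions with all reads counted, and 2 with the background without 1 kb each side, a setting added after seeing the data. The mean log2 ratio of Fli1 over Erg in the strongest window, 0 with both samples and also without either sample, was -0.12 with all reads, -0.32 with read ends not moved, -0.24 with 0 mismatches and 0.17 in windows of 400 bp, and the cause was not tested. The log2 ratio of density ranged from -0.18 to -0.14 without either sample. No paired analysis was possible because there is only 1 group. At 2.96 and 2.18 reads per kb, the called regions of the genome with the fewest reads held 8 and 7 in 200 bp.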
